A study of Arabidopsis thaliana with 24 samples.

Results

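AGL24 (AGAMOUS-like 24, locus AT4G24540) was followed across all 24 arrays of a study of heat in Arabidopsis thaliana mutants. It is 1 of the 16552 genes with a usable named probe set, read by probe set 13488943, the only one named for it. The gene was selected on these values, for a low level in every group that carries brm-1. The brm-1 differences below are therefore a description and carry no test, whereas the heat responses, the hd2c-3 differences and how heat and hd2c-3 combine were not used in the choice. Tests that combine brm-1 with heat or with hd2c-3 are differences between brm-1 differences. They are not independent of the choice, which may favour small values in them.

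AGL24 is a MADS-box transcription factor that promotes flowering. It works at the shoot apex, where it acts with the related factor SOC1 to turn on the floral identity gene LFY, and it is switched down again in young flowers. BRM is the ATPase of a SWI/SNF chromatin remodelling complex, and HD2C is a plant-specific histone deacetylase, so both mutants concern a protein that acts on chromatin.

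The arrays form 8 groups of 3: brm-1 hd2c-3, brm-1, hd2c-3 and the wild type (WT), each in heat and in control conditions. All genotypes are in the Col-0 background, and all plants were 3 weeks old, grown on soil at 70% humidity with 16 h of light and 8 h of dark. Heat was 38 °C for 1 h, and control plants were collected before it. In the heat responses below, heat and time of collection therefore cannot be told apart. The labels give the tissue only as plants and call the replicates biological, and the series text says that replicates with similar expression of unnamed marker genes were selected, so the spread between arrays may understate that between plants.

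The values are log2 intensities, and the array medians lay between 3.42 and 3.65. No named probe set covers BRM or HD2C, so the mutant labels were not checked on their own transcripts. Of short marker lists for leaf, root and flower, 1 of 8, 2 of 8 and 0 of 9 genes were measured. The measured leaf marker, RCA (Rubisco activase), differed by -0.07 to 0.07 in the 4 comparisons of genotypes with and without brm-1, all uncalled. Its mean heat response was 0.31 ± 0.05 (log2, SE; limma adjusted p = 3.889e-05). The root markers EXPA7 and EXPA18 were called in no comparison. On every array they read below the lowest array median, at most 2.69 and 2.36, so they say little about root content. In plant RNA, fewer AGL24-expressing cells and less AGL24 RNA per cell cannot be told apart, and the part of tissue composition in the AGL24 values was not tested.

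AGL24 was low in all 4 groups with brm-1, by a factor of about 3, and high in all 4 groups without it. In control conditions it read 5.28, 5.21 and 4.98 on the brm-1 arrays, against 6.61, 6.67 and 6.85 on the WT arrays. In heat it read 4.87, 5.07 and 5.04 in brm-1, against 6.73, 6.45 and 6.22 in WT. Neither pair of groups overlapped, and the lowest WT value of each condition stood well above the highest brm-1 value.

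The double mutant gave the same picture beside its own single mutant. Control arrays read 5.38, 5.07 and 5.06 in brm-1 hd2c-3, against 6.70, 6.53 and 6.74 in hd2c-3. Heat arrays read 4.26, 4.91 and 4.70 in brm-1 hd2c-3, against 6.49, 6.18 and 6.32 in hd2c-3. Again no value of one group reached the other, and heat replicate 1 of the double mutant held the lowest AGL24 value of the series.

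As group means (± SD, n = 3 each), AGL24 stood at 5.16 ± 0.16 in brm-1 and 6.71 ± 0.13 in WT in control conditions, a log2 difference of -1.55 ± 0.16 (SE), or 34.1% of the WT level. In heat the means were 4.99 ± 0.11 in brm-1 and 6.47 ± 0.25 in WT, a difference of -1.47, or 36.0%. For brm-1 hd2c-3 and hd2c-3 the control means were 5.17 ± 0.18 and 6.65 ± 0.11, a difference of -1.48, or 35.8%. Their heat means were 4.62 ± 0.33 and 6.33 ± 0.16, a difference of -1.71, or 30.6%. Each loss is 2.78-fold to 3.27-fold on the linear scale, and the smallest and the largest of the 4 are 0.23 apart on the log2 scale. Ranked by size among all 16552 genes, the falls took places 31 and 33 in brm-1 against WT (control, heat) and places 27 and 17 in brm-1 hd2c-3 against hd2c-3.

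**Figure D1:**
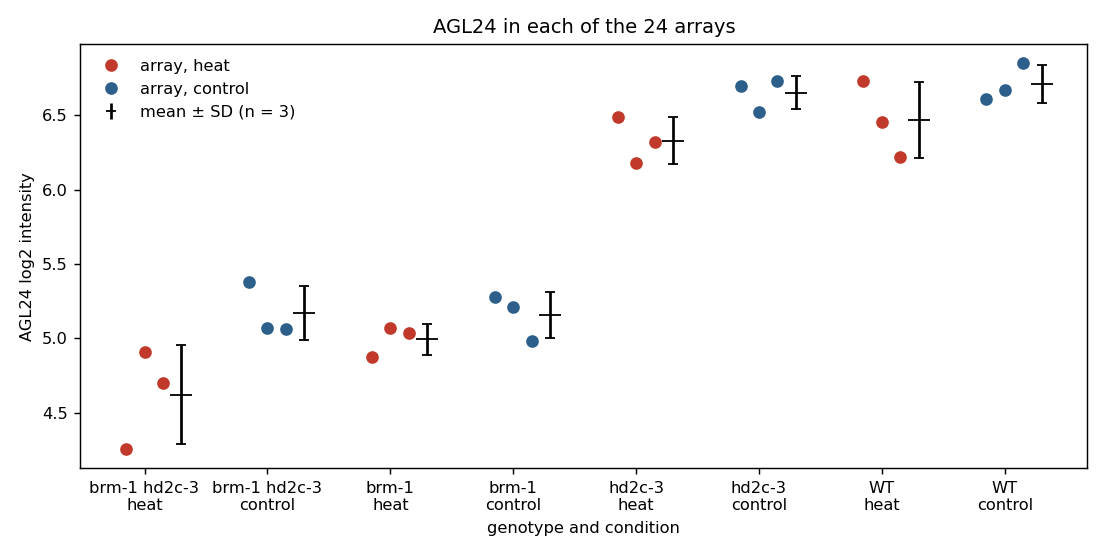
AGL24 log2 intensity (y axis) on each of the 24 arrays, by genotype and condition (x axis), with heat in red and control in blue; black bars are mean ± SD, n = 3. The 12 arrays with brm-1 lie at or below 5.38 and the 12 arrays without it at or above 6.18.

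Pooled over hd2c-3 status and heat, the 12 arrays with brm-1 averaged 4.99 ± 0.29 (SD) and the 12 without it 6.54 ± 0.21. The highest of the arrays with brm-1 read 5.38 and the lowest of those without it 6.18, which leaves an empty interval of 0.80. Such a complete separation downward was present in 63 genes (0.381% of those tested), and upward in 58 genes (0.35%). Among the 63 genes, AGL24 had the 9th widest interval. In the array values of AGL24, the brm-1 factor took 90.9% of the sum of squares, heat 3.82%, hd2c-3 0.715% and replicates of the same group 3.74%. These shares, a calculation chosen after seeing the data, describe a gene that was chosen for the first of them.

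Ordered by mean, the groups ran from brm-1 hd2c-3 heat at the bottom through brm-1 heat, brm-1 control, brm-1 hd2c-3 control, hd2c-3 heat, WT heat and hd2c-3 control to WT control at the top. In this order, brm-1 hd2c-3 control and hd2c-3 heat were the one pair of neighbours whose values did not overlap, 1.16 apart with a pooled SD of 0.17. The lowest step, 0.37 between brm-1 hd2c-3 heat and brm-1 heat, exceeded its pooled SD of 0.25, and the next, 0.16 between brm-1 heat and brm-1 control, exceeded its pooled SD of 0.13, but the values overlapped in both. The means of brm-1 hd2c-3 control and brm-1 control were 0.01 apart. The 4 groups without brm-1 followed each other in steps of 0.06 to 0.18, each within its pooled SD.

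AGL24 was slightly lower in heat. Averaged over the 4 genotypes, the heat response was -0.32 ± 0.08 (log2, SE; 95% interval -0.48 to -0.16), which is 80.2% of the control level, and limma's adjusted p was 0.00228. All 4 genotypes had a lower mean in heat. Over all genes, 37.4% were called for this mean response and 17.5% were called higher and 19.9% lower, so a change with heat in either direction was common on these arrays.

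Taken by genotype, the heat response passed the test in the double mutant. In brm-1 hd2c-3 the heat arrays (4.26, 4.91, 4.70) lay below the control arrays (5.38, 5.07, 5.06), a difference of -0.55 ± 0.16 (adjusted p = 0.0137; 68.4% of control), where 21.5% of all genes were called and 12.1% were called lower. This call rests on 2 arrays. Without heat replicate 1 of brm-1 hd2c-3 the difference was -0.37 (adjusted p = 0.115), without control replicate 1 it was -0.44 (adjusted p = 0.0882), and in a fit of those 2 groups alone the adjusted p was 0.0932. Limma's array weights are low for arrays that stray from their group over all genes. Heat replicate 1 of brm-1 hd2c-3 had the lowest weight of the series (0.354).

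In the other 3 genotypes the response was negative and not called. The hd2c-3 heat arrays lay just below the hd2c-3 control arrays without overlap, at -0.32 (95% interval -0.65 to 0.01; adjusted p = 0.169, with 20.0% of genes called). The WT difference was -0.24 (-0.57 to 0.08; adjusted p = 0.400, with 13.3% called), running from -0.37 without WT heat replicate 1 to -0.12 without WT heat replicate 3, and the brm-1 difference was -0.16 (-0.49 to 0.16; adjusted p = 0.607, with 15.8% called). In both, one or more heat arrays lay within the range of the control arrays. A heat loss larger than about 0.6 on the log2 scale lies outside the WT and brm-1 intervals, and smaller ones remain within them.

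The heat responses of the genotypes were not shown to differ from each other. The response of brm-1 hd2c-3 minus that of hd2c-3 was -0.23 (95% interval -0.69 to 0.24; adjusted p = 0.827, with 0.224% of genes called). For brm-1 minus WT it was 0.08 (-0.38 to 0.54; adjusted p = 0.981, with 0.187% called), and for hd2c-3 minus WT it was -0.08 (-0.54 to 0.38; adjusted p = 0.979, with 0.0% called).

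**Figure D2:**
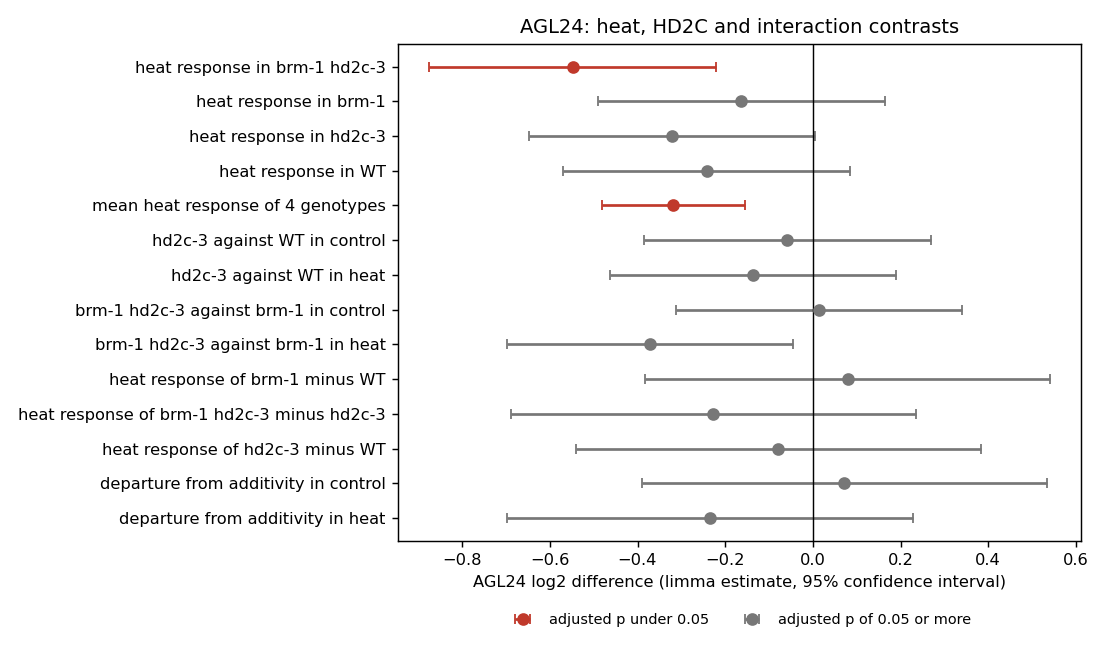
Log2 differences of AGL24 (x axis, limma estimate with 95% confidence interval) for the heat, HD2C and interaction contrasts (y axis); red marks an adjusted p under 0.05. The heat response of brm-1 hd2c-3 (-0.55) and the mean heat response (-0.32) are the 2 red points, and 12 intervals belong to contrasts that were not called.

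In hd2c-3, AGL24 stood near its WT level. In control conditions hd2c-3 read 6.70, 6.53 and 6.74 and WT 6.61, 6.67 and 6.85, a difference of -0.06 (95% interval -0.38 to 0.27; adjusted p = 0.9997). A single gene of all those tested, 0.00604%, was called in that comparison. In heat the difference between hd2c-3 and WT was -0.14 (-0.46 to 0.19; adjusted p = 0.758, with 0.598% called). The groups overlapped in both conditions, and the intervals exclude a change as large as that seen with brm-1.

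With brm-1 present in both genotypes, adding hd2c-3 changed AGL24 by 0.01 in control conditions (brm-1 hd2c-3 minus brm-1; -0.31 to 0.34; adjusted p = 1.0, with 0.0423% of genes called). In heat the double mutant stood 0.37 below brm-1 (-0.70 to -0.04), an unadjusted p of 0.0279 that did not pass after adjustment over all genes (adjusted p = 0.205, with 4.8% called). That difference was -0.19 without heat replicate 1 of brm-1 hd2c-3 and ran from -0.52 to -0.19 with 1 array left out. The sum of the single-mutant differences was set against the double mutant as a test of additivity. The departure was 0.07 in control conditions (-0.39 to 0.53; adjusted p = 0.999, with 0.0483% called) and -0.23 in heat (-0.70 to 0.23; adjusted p = 0.803, with 0.199% called), the last running from -0.38 to -0.05 with 1 array left out.

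AGL24 acts within a network of flowering genes, and 11 of the 74 others on the list used here were measured. SOC1, SVP, FLC, FT, LFY and AP1 have no named probe set and were not analysed here. The 11 are FD, the bZIP partner of FT; GI, a clock-linked component of the photoperiod pathway; the MADS-box genes AGL19, AGL42, AGL71 and AGL72; the AP2-like repressors SMZ and SNZ; and FPA, FY and LD of the autonomous pathway. AGL19 and the SOC1-like AGL42, AGL71 and AGL72 promote flowering.

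In the brm-1 comparisons, 1 of the 11 was called in at least 1 comparison (9.09%), against 10.8% of all genes. AGL71 and AGL72 read below the lowest array median (3.42) on every array, at most 2.34 and 2.07. AGL42 and AGL19 reached at most 3.46 and 3.99. Such low values leave little room for a fall to be called, so the share called does not show that the list is unaffected by brm-1. No member was called in brm-1 against WT in control conditions or in heat, where 4.26% and 5.1% of all genes were called, and 1 and 2 members had an unadjusted p under 0.05, beside 2301 and 2602 of all 16552 genes. In brm-1 hd2c-3 against hd2c-3, GI was called lower in control conditions (3.28% of all genes called) and no member in heat (5.03% called). In these, 4 and 2 members had an unadjusted p under 0.05, beside 2007 and 2864 of all genes. The medians of the list lay between -0.06 and 0.06 in these comparisons and those of all genes between -0.04 and 0.01. GI read 8.45, 8.29 and 8.39 in brm-1 hd2c-3 control, against 9.34, 9.36 and 8.73 in hd2c-3 control, a difference of -0.77 ± 0.14 (adjusted p = 0.00144). One hd2c-3 array lay well below the other two, and the groups did not overlap. In the other 3 comparisons GI differed by -0.28 (brm-1 against WT, control), 0.02 (brm-1 against WT, heat) and -0.12 (brm-1 hd2c-3 against hd2c-3, heat).

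FD was lower in heat in every genotype. FD in WT read 5.79, 5.68 and 5.69 in heat, against 6.89, 7.02 and 6.76 in control conditions, a difference of -1.17 (adjusted p = 6.729e-06). The responses were -1.36 in brm-1 hd2c-3, -0.91 in brm-1 and -1.29 in hd2c-3, each called, and the mean of the 4 was -1.18 ± 0.07 (adjusted p = 7.79e-12). SMZ, a repressor of flowering, fell on average by 0.59 on the log2 scale (adjusted p = 0.000144). By genotype it was called in brm-1 hd2c-3, at -0.66 (adjusted p = 0.0348), and in hd2c-3, at -0.64 (adjusted p = 0.0439) with overlapping values. The call in brm-1 hd2c-3 was lost in 8 alternative fits, among them those without control replicate 1 or 3 or heat replicate 2 or 3 of brm-1 hd2c-3 (adjusted p up to 0.1765). AGL19 rose in brm-1 hd2c-3, with 3.33, 3.28 and 3.99 in heat against 2.64, 2.80 and 3.02 in control conditions (0.71; adjusted p = 0.0084), and its mean response was 0.45. The call was lost without heat replicate 3 of brm-1 hd2c-3 (0.49; adjusted p = 0.0832).

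In the mean heat response, 1 of the 11 flowering genes rose (AGL19) and 3 fell (FD, SMZ and FY, the last by 0.18), and 7 were not called, beside 17.5% of all genes called higher and 19.9% called lower. Counted by genotype, 3 of the 11 were called in at least 1 heat response (27.3%), against 33.9% of all genes. In the 4 HD2C comparisons none of the 11 was called by limma, against 5.21% of all genes called in at least 1. Unadjusted p values under 0.05 numbered 0 and 1 in hd2c-3 against WT (control, heat), beside 418 and 2102 of all 16552 genes. In brm-1 hd2c-3 against brm-1 (control, heat) they numbered 2 and 1, beside 938 and 2933 of all genes.

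**Figure D3:**
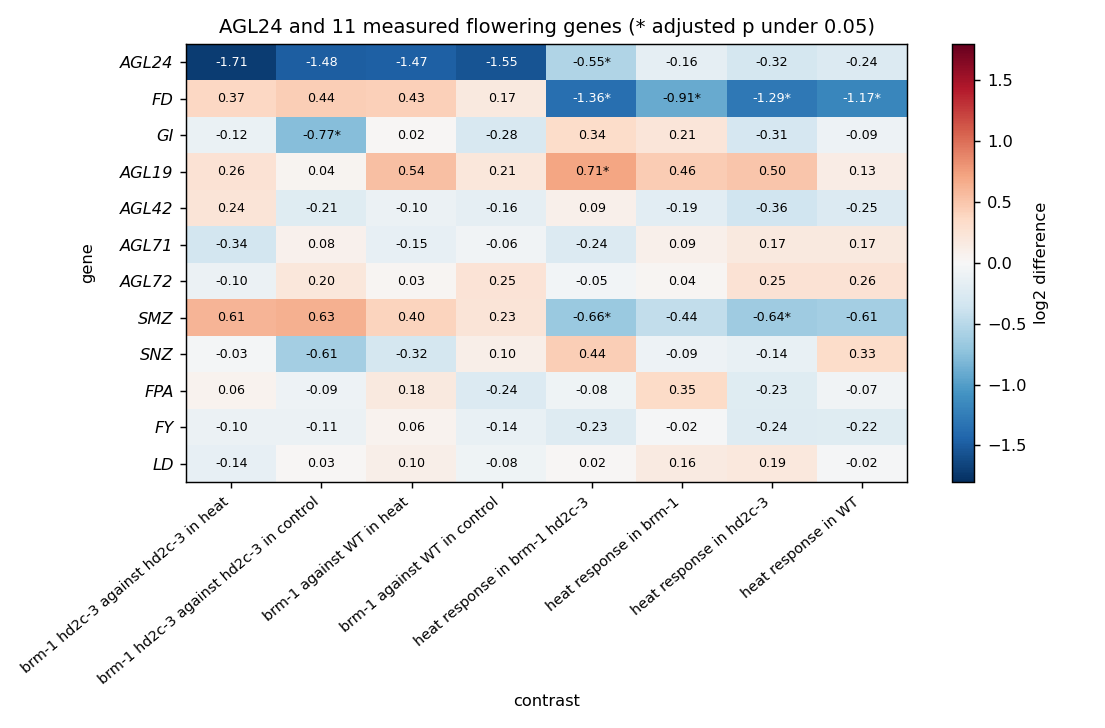
Log2 differences (colour and printed value) of AGL24 and the 11 measured flowering genes (rows) in the 4 brm-1 comparisons and the 4 heat responses (columns); an asterisk marks an adjusted p under 0.05. AGL24 carries no test in the 4 brm-1 columns, where it falls by 1.47 to 1.71; FD carries an asterisk in all 4 heat columns.

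Within its own family AGL24 can be set beside 63 other measured genes of 92 listed MADS-box genes. In the 4 brm-1 comparisons, 1 of the 63 was called (1.59%, against 10.8% of all genes). This was AGL76, lower by 0.45 in brm-1 hd2c-3 against hd2c-3 in control conditions, with means of 1.12 ± 0.12 and 1.57 ± 0.10 (adjusted p = 0.0488). The AGL76 call was lost in 22 of the alternative fits. Both AGL76 means lay below the lowest array median (3.42). Members that read this low leave little room for a fall to be called. The share called therefore does not show that the family is unaffected by brm-1. Across the family, differences in brm-1 against WT ran from -0.48 to 0.36 in control conditions and from -0.91 to 0.54 in heat. In brm-1 hd2c-3 against hd2c-3 they ran from -0.61 to 0.57 in control conditions and from -0.47 to 0.47 in heat. AGL24, at -1.47 or lower, lay outside each of these ranges, as the choice of the gene implies.

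Heat responses were called in both directions in the family. In the mean heat response 8 of the 63 rose and 3 fell, beside 17.5% of all genes called higher and 19.9% lower, with a median of 0.07 against 0.03 for all genes, and 10 were called in at least 1 genotype (15.9%, against 33.9% of all genes). Members that read as low as AGL76 leave little room for a fall in heat to be called either. The share called therefore does not show that the family responds less to heat, and the same holds for the HD2C comparisons below. AGL65 and AGL30 were called higher in all 4 genotypes, with responses of 0.98 and 0.86 in brm-1 hd2c-3, 0.72 and 0.46 in brm-1, 0.53 and 0.52 in hd2c-3, and 0.57 and 0.34 in WT. The AGL30 call was lost in 17 alternative fits in WT, including every fit without a WT array, and in 2 in brm-1. The AGL65 call was lost in 3 fits in WT (without control replicate 1 or 2 or heat replicate 1) and in 2 in hd2c-3 (without control replicate 3 or heat replicate 2). Both belong to the MIKC* type of MADS-box genes, known for their part in pollen. AGL16 was called lower in brm-1, hd2c-3 and WT, at -0.64, -0.61 and -0.49, and in WT the call was lost without control replicate 1 or 3 or heat replicate 3 and in the fit of the groups compared alone.

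In brm-1 hd2c-3, heat responses were called for AGL94 (1.09), AGL18 (0.88), AGL19 (0.71), AGL62 (-0.62) and AGL87 (-0.44), where 21.5% of all genes were called. The AGL87 call was lost in 7 alternative fits, among them those without control replicate 2 or 3 or heat replicate 2 or 3, and without heat replicate 3 its difference was -0.28 (adjusted p = 0.2405). AGL18 is a floral repressor, and AGL62 is known for its role in the endosperm. AGL43 was also called there at 0.55, with overlapping values. AGL62, AGL87 and AGL43 read below the lowest array median (3.42) in both groups. Their means were 1.49, 2.43 and 2.17 in heat and 2.11, 2.86 and 1.62 in control conditions. AGL94 and AGL19 had control means of 2.50 and 2.82, also below that median, and heat means of 3.59 ± 0.41 and 3.53 ± 0.39 (SD). AGL98 was called in WT, at 1.03 (13.3% of all genes called), a call lost in 17 alternative fits and with any WT array left out except heat replicate 1. Without WT heat replicate 2 its difference was 0.77 (adjusted p = 0.2308). The AGL98 means in WT, 2.63 in heat and 1.60 in control conditions, were also below the lowest array median. In the HD2C comparisons 2 of the 63 were called (3.17%, against 5.21% of all genes in at least 1), both in brm-1 hd2c-3 against brm-1 in heat: AGL94 at 0.91 (adjusted p = 0.00399) and AGL30 at 0.42 (adjusted p = 0.0315), with 4.8% of all genes called. Both calls were lost in the fit of the groups compared alone (adjusted p = 0.1146 and 0.3276), and that of AGL30 also without heat replicate 1 or 3 of brm-1 or heat replicate 3 of brm-1 hd2c-3. The AGL94 mean in brm-1 heat, 2.68, lay below the lowest array median. In that comparison AGL24 had the opposite sign, -0.37, and was not called.

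Of the 10 nearest measured neighbours, 5 on each side in the TAIR10.1 gene order, 2 were called in at least 1 brm-1 comparison (20.0%, against 10.8% of all genes). AT4G24530 and AT4G24550, the genes directly next to AGL24, were uncalled in all 4, with differences of -0.19 to 0.13 and of -0.22 to 0.04. SIC (SICKLE), UBP16, AT4G24480, AT4G24440, AT4G24590 and AT4G24600 were also uncalled. AT4G24610, whose annotated span overlaps that of AT4G24600, was higher in brm-1 against WT in heat (0.45; adjusted p = 0.0334), a call that was lost without WT heat replicate 2 or 3 or without brm-1 heat replicate 1 or 3, with adjusted p from 0.09147 to 0.2144. It was lower in brm-1 hd2c-3 against brm-1 in heat (-0.76; adjusted p = 0.000688).

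The neighbour called lower in all 4 comparisons was AT4G24450, 9 genes before AGL24, listed as a phosphoglucan, water dikinase with the synonym ATGWD2. It read 3.34, 3.76 and 3.28 in brm-1 control, against 5.77, 5.51 and 5.72 in WT control, a difference of -2.21 ± 0.19 (adjusted p = 8.771e-08). In heat brm-1 read 3.43, 3.17 and 3.97 and WT 5.14, 5.19 and 4.86, a difference of -1.54 (adjusted p = 1.132e-05). For brm-1 hd2c-3 against hd2c-3 the differences were -2.24 in control conditions and -2.14 in heat, and no pair of groups overlapped. The size of its fall was not tested against that of AGL24.

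In the mean heat response, 4 of the 10 neighbours were called lower and none higher, beside 19.9% of all genes called lower and 17.5% called higher. AT4G24530 and AT4G24480 fell by 0.48 and 0.46, AT4G24610 by 0.46 and AT4G24450 by 0.39. The first of these adjoins AGL24, which fell by 0.32. AT4G24550, which adjoins AGL24 on the other side, was not called (0.10; limma adjusted p = 0.230).

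**Figure D4:**
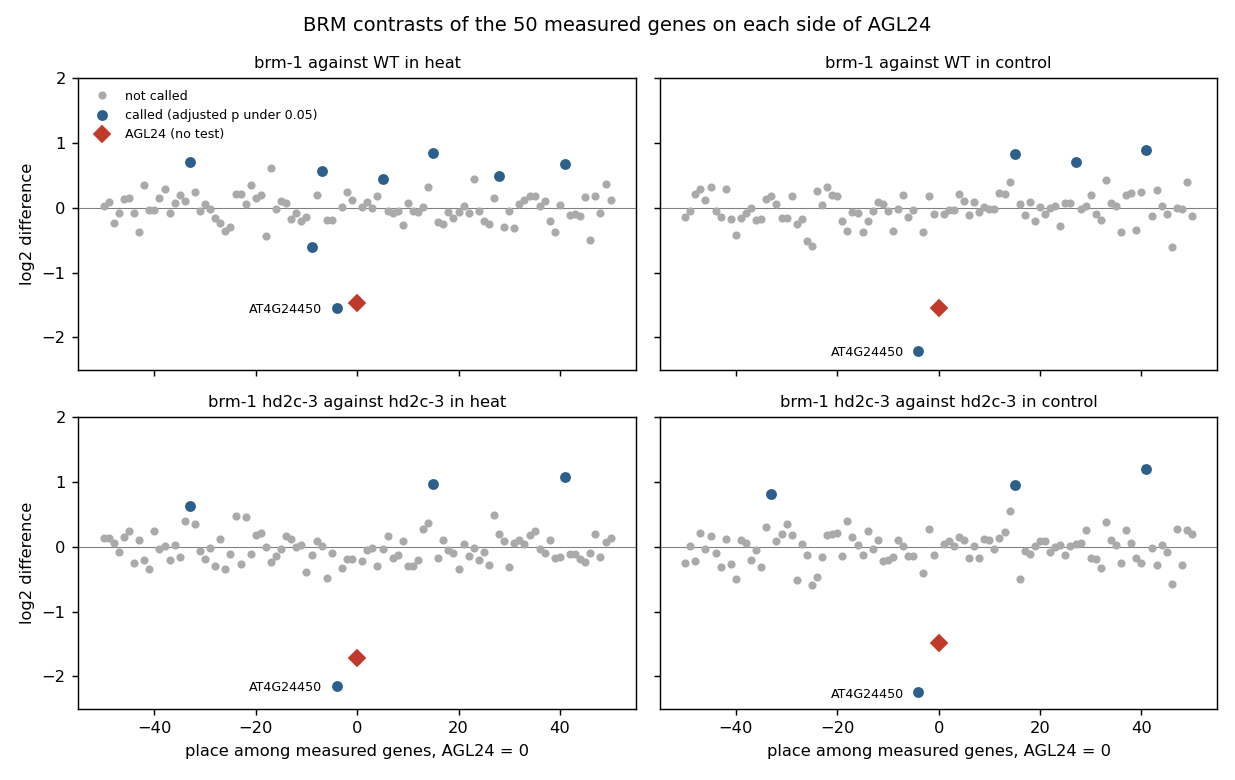
Log2 differences (y axis) of the 50 measured genes on each side of AGL24, by their place in the gene order (x axis, AGL24 at 0), in the 4 brm-1 comparisons; blue points are called, grey points are not, and the red diamond is AGL24, without a test. AT4G24450 lies below AGL24 in every panel.

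Genes whose array values followed those of AGL24 most closely were ranked by Pearson's r over the 24 arrays. The values share the arrays and the brm-1 difference for which AGL24 was picked, so these correlations are a description and carry no p. In all, 28 genes had r above 0.9 and 8 below -0.9. The 10 closest were AT3G48200 (0.98), AT2G43550, AT4G24450 (both 0.97), AT1G22910, AT1G78450, AT4G12290, UGT71B1, AT1G64370 (each 0.96), AT1G71695 and AT3G01860 (both 0.95). UGT71B1 is listed as a UDP-glucosyl transferase, and AT4G24450 is the neighbour described above.

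In each of the 10, the 12 arrays with brm-1 lay below the 12 without it, a separation that ranking against AGL24 favours. AT3G48200 had a mean of 5.95 with brm-1 (5.45 to 6.21) and 7.64 without it (7.21 to 7.98). The differences between these means ran from -2.03 for AT4G24450 to -0.71 for AT1G71695, with -1.55 for AGL24. Within the 12 arrays that carry brm-1, r with AGL24 ran from 0.35 (AT1G64370) to 0.89 (AT3G48200), and within the other 12 from 0.22 (AT4G12290) to 0.83 (AT1G22910). AT1G22910 stood at 0.81 with brm-1 and 0.83 without it. The 10 genes were ranked on these same arrays. Each set of 12 also mixes heat and control arrays, so these r values include any shared difference between heat and control. With Spearman's rho in place of r, 4 of the 10 stayed among the closest 10.

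The 4 most opposed genes were AT5G66270 (-0.95), AT5G01960, AT4G25170 (both -0.94) and AT2G40620 (-0.93), the last listed as bZIP18. Their means were higher on the arrays with brm-1 by 1.01, 0.54, 0.96 and 1.82, in that order, without overlap. The ranking favours this separation too. AT2G40620 had r of -0.11 within the arrays that carry brm-1 and -0.16 within those that do not, whereas AT5G66270 had -0.77 and -0.51. Of these 4 genes, 2 stayed among the 4 most opposed with Spearman's rho, 1 with group means, 3 with equal array medians and 4 with all named probe sets.

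**Figure D5:**
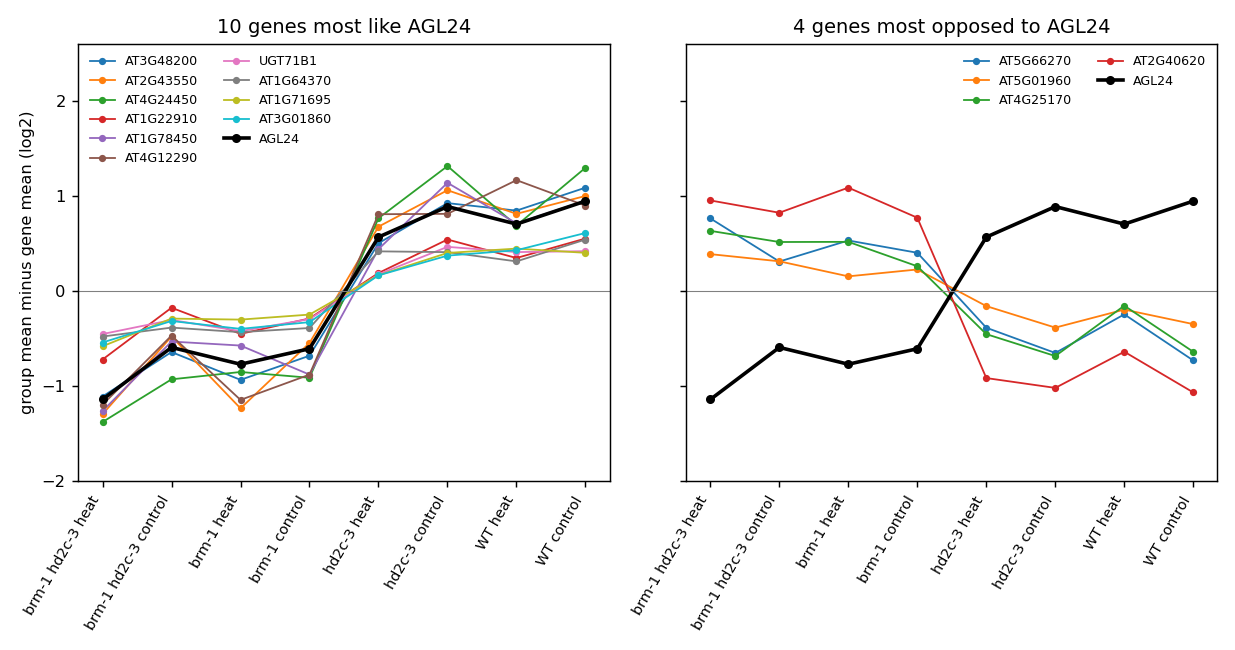
Group means centred on each gene's mean over the groups (y axis, log2) for the 10 genes most like AGL24 (left) and the 4 most opposed (right), by group (x axis); AGL24 is the thick black line, and lines only join the groups of a gene. Each of the 10 lies below 0 in the 4 groups with brm-1 and above 0 in the other 4, and each of the opposed genes does the reverse. Ranking against AGL24 favours such profiles.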

How the data were processed

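Total RNA from the 24 samples was hybridised to Affymetrix arrays. The authors deposited log2 intensities for 38408 probe sets, and RMA and Partek are named per the submitters' processing notes, without versions or settings. The genome build of the probe sets is not given in the sources used here. A platform table names 1 gene for 16746 probe sets, several for 758 and none for 20904. Only the first were used, with the probe set of highest mean per gene, which left 16552 genes, and 16418 of these matched the TAIR10.1 gene table, which was used for names and neighbours only. The number of arrays limits the precision.

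Limma 3.58.1 in R 4.3.3 was fitted to all genes with 1 mean per group (lmFit and eBayes, 16 residual degrees of freedom), two-sided, with Benjamini-Hochberg adjustment over all genes, and a gene was called at an adjusted p under 0.05. For AGL24 14 contrasts were tested. Simulated data with known changes were used to check the fit. AGL24, the gene lists and the alternatives were chosen with earlier results of these data known. The genes named were AGL24, called members of the flowering and MADS-box lists without overlap of the groups (up to 6 per list and comparison), the 10 genes most like it, the 4 most opposed and its 10 measured neighbours. A few called genes with overlap are named beside these. Replicate numbers gave no clear pairing of the samples. Deviations from group means on same-numbered arrays correlated at a mean r of 0.037 (-0.22 to 0.41), against -0.018 for other numbers. In 0 of 28 pairs of groups were all correlations above 0.1, and shared batches were not tested. Alternatives changed the scaling, variance model, filter, probe sets, array weights, groups fitted and, one at a time, the arrays.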

Additional observations from a re-analysis of the deposited data

How the results depend on the processing

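The mean heat response of AGL24 kept its direction and its call in every alternative run: with 1 array left out it ran from -0.35 to -0.27 (adjusted p from 0.000679 to 0.00567), and otherwise from -0.32 to -0.27 (0.000787 to 0.00384). The heat response of brm-1 hd2c-3 ran from -0.69 to -0.37 with 1 array left out, and at -0.55 lost its call when the 2 groups were fitted alone (adjusted p = 0.0932). The brm-1 differences, which carry no test, ran from -1.85 to -1.34 with 1 array left out. Uncalled values near 0 changed sign: brm-1 hd2c-3 minus brm-1 in control conditions with array weights (-0.00965) and with 1 array left out (-0.0900 to 0.0752), and with 1 array left out also hd2c-3 minus WT in control conditions (-0.109 to 0.0125), the heat response of brm-1 minus WT (-0.0443 to 0.210) and of hd2c-3 minus WT (-0.202 to 0.0519), and the departure from additivity in control conditions (-0.0321 to 0.133). The cause of these moves was not tested. Flowering genes called in brm-1 comparisons, 1 as reported, numbered 2 with an intensity trend, 3 with array weights, 2 with only the groups compared, 3 without dim genes and 1 to 3 with 1 array left out. MADS-box genes, 1 as reported, numbered 0 with the replicate number as a block (replicate block), 2 with equal array medians, 3 with cyclic loess, 3 with quantile normalization, 2 with an intensity trend, 4 without moderation, 5 with array weights, 2 without dim genes and 0 to 2 with 1 array left out. Neighbours, 2 as reported, numbered 1 with equal array medians, 1 with only the groups compared, 9 of 100 in the wider window and 1 to 2 with 1 array left out. With 1 array left out, flowering genes called numbered 2 to 4 in the heat responses and 0 to 1 in the HD2C comparisons. With Spearman's rho 4 of the 10 most similar genes remained. With the block, which no pairing backs, the adjusted p of AGL24 was 0.0184 for heat in brm-1 hd2c-3 and 0.0035 for the mean heat response. Over all genes, array weights moved the called counts for brm-1 against WT (1322 against 705 in control conditions, 1290 against 844 in heat) and fitting only the groups compared moved those for brm-1 hd2c-3 against hd2c-3 in heat (215 against 833), brm-1 hd2c-3 against brm-1 in heat (165 against 794) and hd2c-3 against WT in heat (3 against 99), and with 1 array left out the last ran from 3 to 357. Over all alternatives the other counts over all genes ran from 339 to 844 for brm-1 hd2c-3 against hd2c-3 in control conditions (543 as reported), 0 to 41 for brm-1 hd2c-3 against brm-1 in control conditions (7), 1 to 3 for hd2c-3 against WT in control conditions (1), 11 to 180, 5 to 61 and 0 to 71 for the heat response of brm-1 minus WT (31), brm-1 hd2c-3 minus hd2c-3 (37) and hd2c-3 minus WT (0), and 1 to 37 and 3 to 71 for the departure from additivity in control conditions (8) and in heat (33).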

Other observations

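A window of 50 measured genes on each side of AGL24, chosen after seeing the data, held 9 genes of 100 that were called in at least 1 brm-1 comparison, against 10.8% of all genes. In brm-1 against WT the share called was 4.0% in control conditions and 8.0% in heat, beside 4.26% and 5.1% of all genes. In brm-1 hd2c-3 against hd2c-3 it was 4.0% in both conditions, beside 3.28% and 5.03% of all genes. Besides AT4G24450, AT4G24790 and AT4G25170 were called in all 4 comparisons, both in the direction opposite to AGL24. AT4G24790, 27 genes after AGL24, was higher by 0.84 to 0.97. AT4G25170, 67 genes after AGL24 and one of the 4 genes most opposed to it over the arrays, was higher by 0.67 to 1.20.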
